A study of Mus musculus with 6 samples.

Results

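Club cells are secretory cells of the conducting airways, and 7 genes that mark them were followed in lungs of mice with and without Zpbp2. The genes were taken by symbol, and all 7 were found among the 41388 genes of the table. They are the secretoglobins Scgb1a1, Scgb3a1 and Scgb3a2, the enzymes Cyp2f2, Cbr2 and Aldh1a1, and the haemoglobin binder Hp. RNA sequencing was done on whole lung from adult mice, with 3 libraries of wild type C57BL/6J mice (WT) and 3 of mice that lack the first exons and part of the promoter of Zpbp2 (Zpbp2 KO, here KO), the strain B6.129S7-Zpbp2tmZuk/Mmjax on a C57BL/6J background. Every lung was taken at ZT7, which is 7 h into the light phase, and the WT controls were bred in the same colony. The deletion is constitutive, so it is carried by all cells of the lung.

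As background, club cells line bronchi and bronchioles, where they secrete small proteins into the airway fluid, break down inhaled chemicals and act as progenitors that renew the airway epithelium after injury. Their main product is the secretoglobin Scgb1a1, a small protein with anti-inflammatory actions. The human counterpart of the Zpbp2 region is linked to asthma, and the study asked how its deletion changes expression in lung.

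The count per library ranged from 59134950 in KO3 to 71354388 in WT1, and 23070 to 23711 genes had at least 1 count. Zpbp2 itself had 20, 15 and 7 counts in WT1 to WT3 and 1, 0 and 0 in KO1 to KO3. The libraries KO2 and KO3 differed by little more than counting noise, with a variance over genes of 1.71 to 1.93 times the counting variance in 3 classes of lower counts and 3.32 times in the class of highest counts. For the other pairs within a genotype that last ratio was 32.4 to 147. The study's methods name KO1 to KO3 as 3 mice, and the titles of KO2 and KO3 carry different identifiers. From the counts it could not be settled here whether the KO2 and KO3 libraries are from separate mice. They were summed and counted as 1 sample, which left n = 3 for WT and n = 2 for KO. Results with the 6 libraries kept apart are given beside them for many of the genes and lists. WT3 and KO1 also stood apart, since a list of 10 squamous epithelium genes led by Krt4 summed in WT3 to 4447 and in KO1 to 8330 CPM (counts per 1000000 counts of the library, scaled), and to between 21.2 and 33.2 CPM in the other libraries. Nothing in the labels says that the samples of a genotype came from separate litters or days, so p-values measure only the spread between these samples.

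Of the 7 genes, 4 were higher in every KO library than in any WT library, namely Scgb1a1, Cbr2, Hp and Cyp2f2. That ordering was met by 20.0% of the 18660 genes tested, and by 25.7% of the 2272 genes at a mean of 100 CPM or more. The other 3, Scgb3a1, Scgb3a2 and Aldh1a1, overlapped between the genotypes. With edgeR's quasi-likelihood test and adjustment over all tested genes, 0 of the 7 genes reached an adjusted p of 0.05, while 2.28% of all genes did, 1.38% as higher and 0.906% as lower in KO. Without adjustment 4 of the 7 had a p under 0.05 in that test, against 27.3% of all genes in either direction and 13.9% as higher in KO. DESeq2 called 4 of them as higher, against 10.6% of all genes, and limma-voom called 0, against 2.08% of all genes in either direction. With the 6 libraries kept apart, edgeR called the same 4 as higher, against 9.81% of all genes (18.9% in either direction). That fit counts KO2 and KO3 as separate mice, as the study's methods state, so the calls depend on whether they are. Without WT3 and KO1, 4 were called as higher, against 6.01% of all genes. That fit sets WT1 and WT2 against the single summed KO sample, so WT alone gives the spread and the KO sample is assumed to vary alike. Its p-values say nothing of the spread among KO mice, and its estimates are given without them from here on. A block for replicate number in the 6-library fit left 2 called (Cbr2 and Hp, against 2.99%), and scaling by library size alone left 3 (against 7.17%). Without KO2 and KO3 the log2 fold change was 0.33 for Scgb1a1, 0.42 for Cbr2, 0.36 for Hp and 0.16 for Cyp2f2, with KO1 as the only KO sample.

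**Figure D1:**
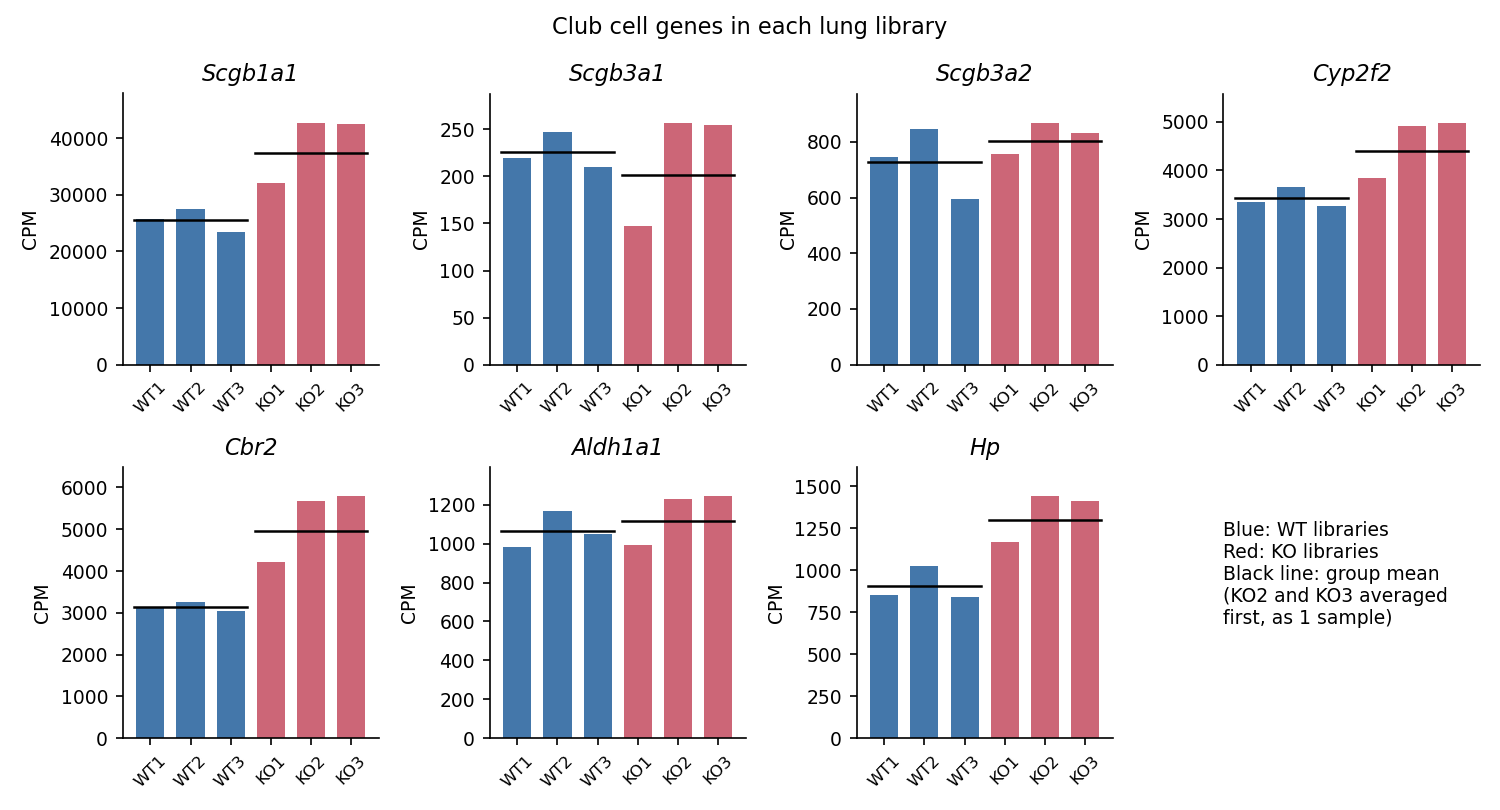
Level of each club cell gene in CPM (vertical axis from 0) in the 6 lung libraries, with blue bars for WT, red bars for KO and black lines for group means in which KO2 and KO3 were averaged first. Scgb1a1, Cyp2f2, Cbr2 and Hp were higher in all 3 KO libraries than in all 3 WT libraries, and the remaining 3 genes overlapped.

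Promoter sequences are shown for the genes with an entry in the RefSeq promoter table of GRCm38.p6, to set 2 genes that were higher in every KO library beside 2 that overlapped. Entries were found for 4 of the 7 genes, and Scgb1a1, Scgb3a2 and Hp had none. Each sequence runs from 250 bases before to 50 bases after the start, on the strand of the gene. Capitals mark matches, on either strand, to the letters TATAAA (the core promoter box), CAAGTG or CTCAAG (NKX2-1, a lung lineage factor), TGTTTAC or TATTTAC (FOXA), TTGCNNAA (C/EBP) and CACGTG (E-box). Cyp2f2 (chr7:27119705-27120004, plus strand) and Cbr2 (chr11:120731972-120732271, minus strand) were among the genes that were higher. Scgb3a1 (chr11:49663345-49663644, plus strand) and Aldh1a1 (chr19:20601718-20602017, plus strand, the second of its 2 starts) were among those that overlapped.
Cyp2f2: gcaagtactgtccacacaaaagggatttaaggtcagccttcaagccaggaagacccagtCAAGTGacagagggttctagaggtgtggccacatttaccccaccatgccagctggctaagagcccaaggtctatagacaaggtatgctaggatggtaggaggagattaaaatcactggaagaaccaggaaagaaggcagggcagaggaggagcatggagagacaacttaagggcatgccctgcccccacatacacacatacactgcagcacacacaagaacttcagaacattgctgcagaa
Cbr2: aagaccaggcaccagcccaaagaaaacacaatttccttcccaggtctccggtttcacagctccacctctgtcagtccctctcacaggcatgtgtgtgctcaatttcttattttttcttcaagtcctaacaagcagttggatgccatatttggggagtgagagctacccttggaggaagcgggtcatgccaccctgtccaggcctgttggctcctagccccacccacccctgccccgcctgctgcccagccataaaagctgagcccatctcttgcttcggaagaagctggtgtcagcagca
Scgb3a1: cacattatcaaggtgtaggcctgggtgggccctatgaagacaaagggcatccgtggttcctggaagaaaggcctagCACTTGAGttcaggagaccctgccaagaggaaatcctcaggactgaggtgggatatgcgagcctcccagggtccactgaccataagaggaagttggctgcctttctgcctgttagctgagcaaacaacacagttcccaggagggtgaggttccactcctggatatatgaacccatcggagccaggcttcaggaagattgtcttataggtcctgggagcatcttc
Aldh1a1: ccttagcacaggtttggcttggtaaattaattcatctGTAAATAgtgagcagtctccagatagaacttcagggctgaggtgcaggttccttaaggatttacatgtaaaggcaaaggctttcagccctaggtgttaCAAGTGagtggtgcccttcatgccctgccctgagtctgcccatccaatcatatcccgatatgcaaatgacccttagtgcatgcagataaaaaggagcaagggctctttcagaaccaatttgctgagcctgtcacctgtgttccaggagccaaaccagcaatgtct

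Cyp2f2 held CAAGTG at 191 bases before the start. Scgb3a1 held, on the other strand, CAAGTG at 174 bases and the overlapping CTCAAG at 172 bases before the start, so its capitals form 1 run. Aldh1a1 held CAAGTG at 115 bases and, on the other strand, TATTTAC at 213 bases before this start, and its other start held only TTGCNNAA, 13 bases before it. Cbr2 held none of these letters in this window. Among all 32851 promoters of that length, CAAGTG occurred in 13.6%, CTCAAG in 15.9%, TATTTAC in 3.04%, TGTTTAC in 3.65%, TTGCNNAA in 10.8%, TATAAA in 13.6% and CACGTG in 7.15%. A match describes the letters only.

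Scgb1a1 (chr19:9083636-9087958, minus strand, 3 exons, 476 bases of exon), the most abundant protein made by club cells, had more counts than any other gene in all 6 libraries. Its level was 25702, 27431 and 23354 CPM in WT1 to WT3 and 32053, 42754 and 42534 CPM in KO1 to KO3. The genotypes were separate, and KO1 was closer to WT than KO2 and KO3 were. WT averaged 25496 ± 2046 (n = 3) and KO 37348 ± 7489 CPM (n = 2, errors as SD here and for the genes that follow). The log2 fold change was 0.56 (SE 0.14, 95% interval 0.19 to 0.93) with an edgeR adjusted p of 0.0917. It was 0.62 with the 6 libraries kept apart (adjusted p 0.0221) and 0.68 without WT3 and KO1. As a share of all counts, Scgb1a1 took 2.34% to 2.80% of a WT library and 3.13% to 4.22% of a KO library. In whole lung, more club cells and more Scgb1a1 RNA per cell cannot be told apart.

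Scgb3a2 (chr18:43764289-43767399, plus strand), a secretoglobin of bronchiolar cells that is expressed early in lung development, had 745, 845.5 and 595 CPM in WT1 to WT3 and 755, 869 and 833 CPM in KO1 to KO3. The genotypes overlapped, because WT2 lay above KO1 and KO3. Here the log2 fold change was 0.15 (SE 0.16), with a 95% interval of -0.27 to 0.56 and an edgeR adjusted p of 0.615. A change of up to 1.47-fold therefore lay within the interval.

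Scgb3a1 (chr11:49663610-49665118, plus strand, 48.9 Mb from Zpbp2), a secretoglobin of larger airways, differed within KO. WT1 to WT3 had 219.6, 247 and 210.2 CPM, and KO1 to KO3 had 147, 257 and 255 CPM. KO1 was below and KO2 and KO3 were above every WT library. The log2 fold change of -0.16 (SE 0.24, 95% interval -0.78 to 0.47, edgeR adjusted p 0.729) was within the spread of the replicates, and it was 0.18 without KO1. KO2 exceeded KO1 by 74.6% for Scgb3a1, the widest gap among the members, against 15.1% to 34.7% for the other 6 genes.

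The wider secretoglobin family had few counts apart from these genes. Of 44 genes whose symbol starts with Scgb, 40 had at most 3 counts in every library, and 37 of these had none. Those 3 counts are at most 0.0514 CPM in a library, a limit that covers counting error only. Shared sequence was examined for the club cell members only, so low counts do not show that the other family genes were silent. The only other member tested was Scgb1c1, with 9.71, 9.97 and 9.47 CPM in WT1 to WT3 and 13.5, 17.2 and 16.6 CPM in KO1 to KO3. Its log2 fold change was 0.65 (SE 0.12, edgeR adjusted p 0.0585), and with the 6 libraries kept apart the adjusted p was 0.0115.

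Enzymes that metabolise foreign chemicals form the second group. Cyp2f2 (chr7:27119909-27133660, plus strand), the cytochrome P450 that makes mouse club cells sensitive to naphthalene, had 3352, 3669.8 and 3265 CPM in WT1 to WT3 and 3848, 4906.5 and 4987 CPM in KO1 to KO3. The lowest KO value exceeded the highest in WT. WT averaged 3429 ± 213 (n = 3) and KO 4397.5 ± 777 CPM (n = 2). Its log2 fold change was 0.36 (SE 0.13, 95% interval 0.04 to 0.69, edgeR adjusted p 0.152), and 0.42 with the 6 libraries kept apart (adjusted p 0.0441). The antisense gene Gm15883 overlaps its exons and had 12 to 51 counts in a library, beside 195830 to 304544 counts of Cyp2f2.

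Cbr2 (chr11:120729489-120732114, minus strand, 22.2 Mb from Zpbp2), a carbonyl reductase abundant in mouse lung, had the largest estimate of the 7 genes. WT1 to WT3 had 3132.5, 3251 and 3055 CPM, and KO1 to KO3 had 4205, 5665 and 5795 CPM. WT libraries were close together and every KO library was above them. WT averaged 3146 ± 98.5 (n = 3) and KO 4967.5 ± 1078.5 CPM (n = 2). The log2 fold change was 0.66 (SE 0.14, 95% interval 0.31 to 1.02), with an edgeR adjusted p of 0.068 in the 5-sample fit and 0.0144 with the 6 libraries kept apart. This estimate was above that of 95.5% of tested genes. Of the 50-base windows of its transcripts, 12.1% also occur in the gene Gm11771, which had 50 to 84 counts in a library.

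Aldh1a1 (chr19:20492715-20643465, plus strand), a dehydrogenase that makes retinoic acid from retinal, had 984, 1169 and 1050.1 CPM in WT1 to WT3 and 993.5, 1231 and 1245 CPM in KO1 to KO3. KO1 lay within the range of WT. The log2 fold change was 0.07 (SE 0.13, 95% interval -0.26 to 0.39, edgeR adjusted p 0.77), so changes beyond 1.31-fold upward lay outside the interval. Its close relative Aldh1a7 shares 3.06% of the 50-base windows of Aldh1a1, and reads in those windows cannot be assigned with certainty. Aldh1a7 was at 102 to 121 CPM in WT and 124 to 156 CPM in KO (log2 fold change 0.30, SE 0.12, edgeR adjusted p 0.189).

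Hp (chr8:109575128-109579172, minus strand) encodes haptoglobin, which binds free haemoglobin, and is secreted by club cells as well as by liver, fat and myeloid cells. It had 855, 1027 and 840.4 CPM in WT1 to WT3 and 1167, 1443 and 1415 CPM in KO1 to KO3. The genotypes did not overlap. WT averaged 907 ± 104 (n = 3) and KO 1298 ± 185 CPM (n = 2), with a log2 fold change of 0.52 (SE 0.13, 95% interval 0.18 to 0.86). The edgeR adjusted p was 0.09, and 0.022 with the 6 libraries kept apart. Lists for other sources of Hp differed in direction. The 8 adipocyte genes summed to 626 to 1149 CPM in WT and 99.6 to 282 CPM in KO. Of these 8, 1 was called as lower (0.906% of all genes), all had every KO library below every WT library (20.7%), DESeq2 called 7 (21.0%), and 6 were called as lower with the 6 libraries kept apart (9.07%). The 8 hepatocyte genes, led by Alb, summed to 4.32 to 5.80 CPM in WT, 7.36 CPM in KO1 and 49.7 to 49.8 CPM in KO2 and KO3. The 7 neutrophil genes, led by Lcn2, which airway epithelium also makes, summed to 127 to 146 CPM in WT and 173 to 192 CPM in KO. Lcn2 was the only one that edgeR called, as higher (1.38% of all genes), at 69.6 to 76.3 CPM in WT and 112 to 117 CPM in KO, and DESeq2 called 3 of the 7 (21.0%). Of the 7 estimates, 5 were lower in KO, the median was -0.13, and Ngp and Camp (log2 fold changes -2.69 and -2.07, adjusted p 0.161 and 0.14) were below WT in every KO library. The part of these cells in the level of Hp was not tested.

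**Figure D2:**
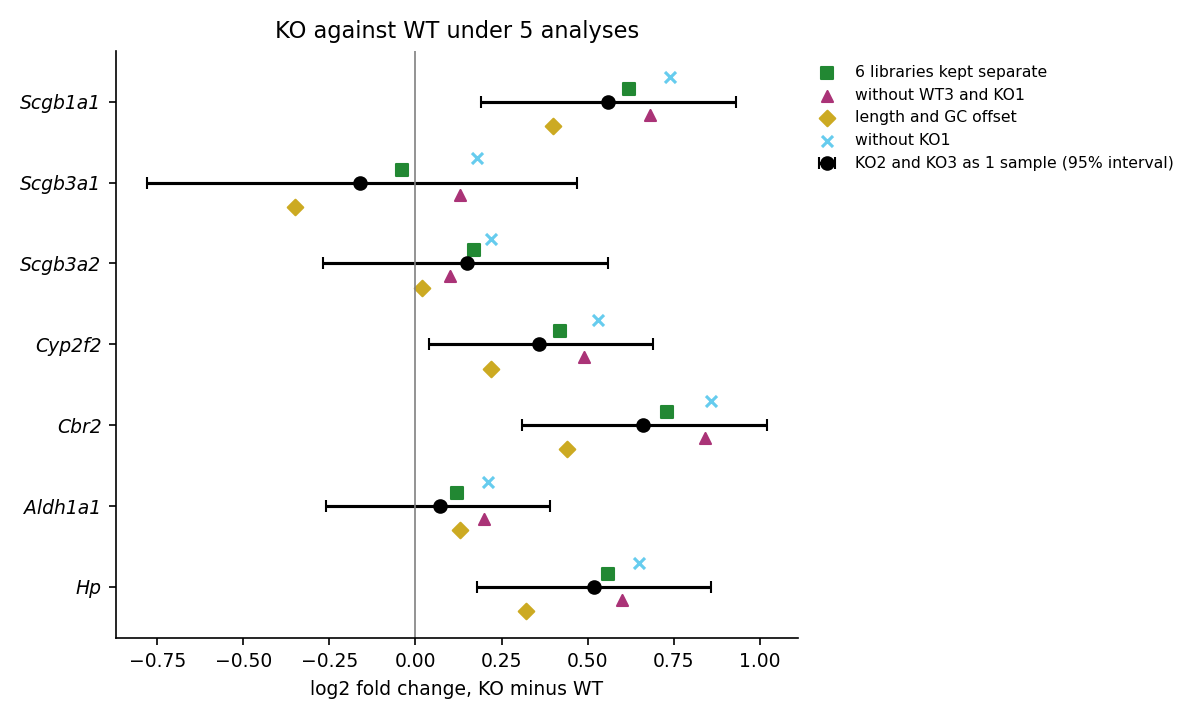
Log2 fold change of each club cell gene (horizontal axis, KO minus WT) with its 95% interval when KO2 and KO3 are 1 sample (black), and the estimate under 4 other analyses. Scgb1a1, Cyp2f2, Cbr2, Hp, Scgb3a2 and Aldh1a1 stayed above 0 under all 5. Scgb3a1 changed sign without KO1, and also without WT3 and KO1.

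Over the 6 libraries, the Pearson correlation of log2 CPM with Scgb1a1 was 0.99 for Cyp2f2, 0.99 for Cbr2 and 0.98 for Hp, but 0.73 for Scgb3a2, 0.71 for Aldh1a1 and 0.30 for Scgb3a1. These are descriptions over libraries that share the genotype difference and its scaling, with KO2 and KO3 both entered, and separate genotypes by themselves raise such a value. Among genes at a mean of at least 10 CPM, 315 of 10990 reached 0.95. Within a library, a ratio of 2 genes does not depend on scaling. There were 111 to 117 counts of Scgb1a1 per count of Scgb3a1 in WT, and 166 to 218 in KO. For Aldh1a1 that ratio went from between 22.2 and 26.1 in WT to between 32.3 and 34.7 in KO, and for Scgb3a2 from between 32.4 and 39.3 to between 42.5 and 51.1. It overlapped for Hp, at 26.7 to 30.1 in WT and 27.5 to 30.1 in KO. Relative to Scgb1a1, the 3 genes whose genotypes overlapped, and also Cyp2f2, were lower in every KO library than in any WT library. Scgb1a1 was itself higher in every KO library, so a gene at an unchanged level would also fall relative to it. For Cyp2f2 the ratio was 7.15 to 7.67 in WT and 8.33 to 8.71 in KO, and for Cbr2 it was 7.64 to 8.44 and 7.34 to 7.62.

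Among 10990 tested genes at a mean of at least 10 CPM, the 5 that were no member and correlated best with Scgb1a1 over the 6 libraries were AU020206, Noxo1, Mrps17, Rsph1 and Gm16973, with Pearson correlations of 0.9999, 0.9978, 0.9974, 0.9973 and 0.9971. Rsph1 encodes a protein of the radial spokes of motile cilia. It had 34.7, 37.1 and 31.5 CPM in WT1 to WT3 and 41.1, 56.6 and 56.5 CPM in KO1 to KO3. Its log2 fold change was 0.51 (SE 0.16, edgeR adjusted p 0.12), and 0.58 with the 6 libraries kept apart (adjusted p 0.0335). The other 4 had log2 fold changes of 0.18 to 0.31, and of 0.10 to 0.19 without KO2 and KO3. Rsph1 had a log2 fold change of 0.25 without KO2 and KO3 and of 0.32 when each library was corrected for length and GC content.

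Levels of different genes were compared per length, as CPM per kb of annotated exon. Scgb1a1 was highest, at 53563 ± 4299 in WT (SD, n = 3) and 78463 ± 15733 in KO (SD, n = 2). It was followed by Cbr2, Cyp2f2, Scgb3a2, Hp, Scgb3a1 and Aldh1a1, an order that held in each of the 6 libraries. WT means were 2371, 1693, 828, 565, 377 and 216 in that order. The ranges over all libraries still overlapped for the neighbours Cbr2 and Cyp2f2, for Scgb3a2 and Hp, and for Scgb3a1 and Aldh1a1. Without division by length, Aldh1a1, with 4937 bases of exon, moved from the last to the fourth place by WT means, because a long transcript gives more reads. In every KO library Hp was above Aldh1a1 by CPM, and Cbr2 was above Cyp2f2.

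**Figure D3:**
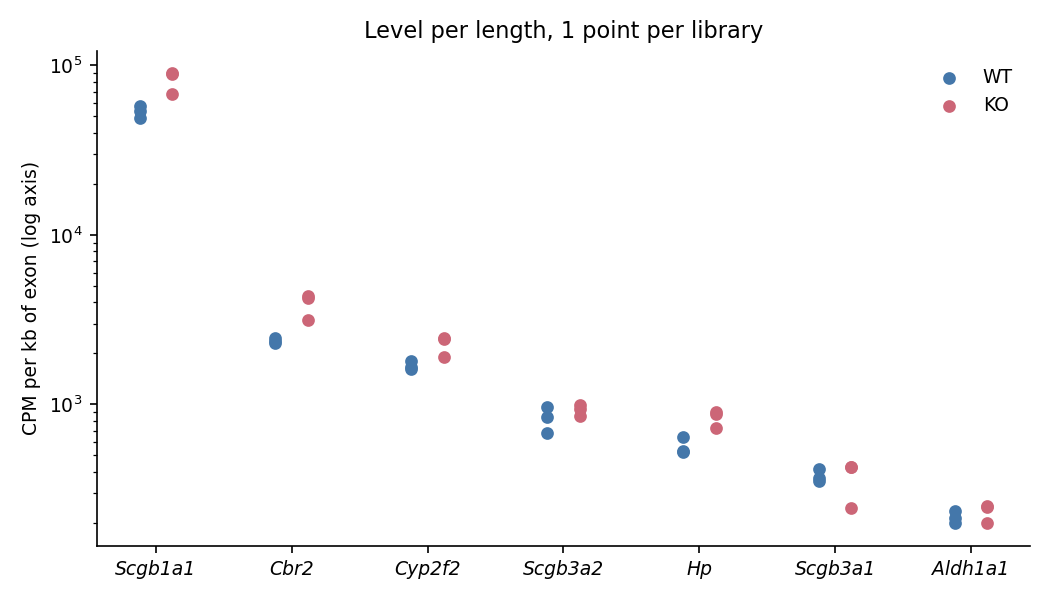
Level of each club cell gene per length (vertical log axis, CPM per kb of exon), with 1 point per library, WT in blue and KO in red. Scgb1a1 lay at 49064 or above in every library, and no other member exceeded 4367.

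Fold changes in these libraries varied with the length of the gene, and the secretoglobins are among the shortest transcripts. Across 18524 tested genes the Spearman correlation of fold change and exon length was -0.33, given across genes, which are not independent replicates. Genes of up to 600 bases had a median log2 fold change of 0.045, with quartiles at -0.38 and 0.42. Medians were highest at 601 to 1000 bases (0.198) and 1001 to 2000 bases (0.192, quartiles -0.088 and 0.379), the latter the class of Cbr2 and Hp. Genes above 8000 bases had a median of -0.16. Scgb1a1 (476 bases), Cbr2 (1327 bases), Hp (1606 bases) and Cyp2f2 (2025 bases) lay above the upper quartile of their length class. When each library was corrected for length and GC content, the log2 fold change was 0.40 for Scgb1a1, 0.44 for Cbr2, 0.32 for Hp and 0.22 for Cyp2f2, with edgeR adjusted p values of 0.264 to 0.543. With that correction edgeR called 0 genes (0.0%), and 4018 had an unadjusted p under 0.05. With the correction and 6 separate libraries, 11.5% of genes were called, and 0 of the 7, with Scgb1a1 at an adjusted p of 0.0513.

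**Figure D4:**
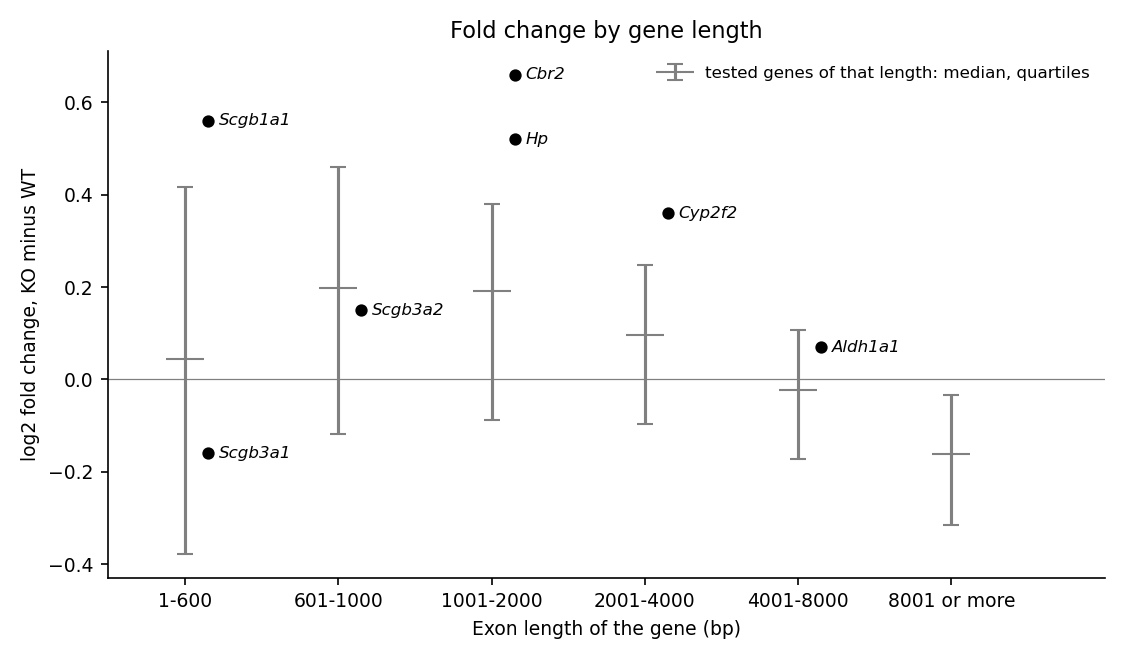
Log2 fold change (vertical axis, KO minus WT) by exon length class in bases, with grey marks for the median and quartiles of all tested genes in a class and black points for the club cell genes. Scgb1a1, Cbr2, Hp and Cyp2f2 lay above the upper quartile of their class, and the class medians ranged from 0.20 down to -0.16, the latter above 8000 bases.

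A list of 18 further genes of airway secretory cells held secreted proteins and also receptors, a claudin and a keratin. Estimates were higher in KO for 8 of them and lower for 10. Of these 18, 1 was called as higher in KO and 0 as lower (1.38% and 0.906% of all genes), with a median log2 fold change of -0.08 against 0.02 over all tested genes. With the 6 libraries kept apart the median was 0.06, with 2 called as higher and 1 as lower (9.81% and 9.07%). DESeq2 called 4 (21.0%), and 5 had an unadjusted p under 0.05 in edgeR (27.3%). The called gene was Wfdc2, a protease inhibitor-like protein of airway and alveolar epithelium. It had 609.8, 637 and 597 CPM in WT1 to WT3 and 891, 1033 and 1029 CPM in KO1 to KO3, and rose by 0.65 on the log2 scale (SE 0.09, edgeR adjusted p 0.0446). Its log2 fold change was 0.53 to 0.74 when 1 sample was left out. It was not called in any of these fits (adjusted p 0.0783 to 0.189), which called 0 genes of the whole table without WT1, WT2, WT3, or KO2 with KO3, and 17 without KO1, where KO is again 1 sample. The call was also lost with the correction for length and GC content (0.40, adjusted p 0.202) or scaling by library size alone (0.60, adjusted p 0.0519). Bpifa1, an antimicrobial and surface-active protein of upper airway cells, had 1196, 1179.8 and 832 CPM in WT1 to WT3. In KO1 to KO3 it had 208, 569 and 572 CPM, with a log2 fold change of -1.45 (SE 0.47, edgeR adjusted p 0.133). KO1 had the lowest level, as for Scgb3a1. The log2 fold change of Bpifa1 was -0.91 without KO1 and -2.36 without KO2 and KO3. It was called as lower with DESeq2 (-1.46, adjusted p 0.0355), and was estimated at -1.06 without WT3 and KO1. Of the 18, 4 had every KO library below every WT library and 3 had the reverse, near the 20.7% and 20.0% of all tested genes. The former were Bpifa1, Bpifb1, Reg3g and Ltf, and the latter Wfdc2, Cldn10 and Upk3a.

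Club cell enzymes of xenobiotic metabolism were compared next. Of 22 genes, 0 were called, 9 had every KO library above every WT library and 0 the reverse (20.0% and 20.7% of all tested genes), with a median log2 fold change of 0.27 against 0.02 over all. An unadjusted p under 0.05 was reached by 7 (27.3% of all genes), DESeq2 called 7 (21.0% of all genes) and limma-voom 0. One of the named genes was Ces1d, a carboxylesterase, with 673 to 749 CPM in WT and 797 to 902 CPM in KO (log2 fold change 0.26, SE 0.08, adjusted p 0.133, and 0.17 without KO2 and KO3). With the 6 libraries kept apart 7 of the list were called as higher, Ces1d among them (adjusted p 0.0358), against 9.81% of all genes. Fmo2, a lung monooxygenase, had 861, 933 and 876 CPM in WT1 to WT3 and 837, 953 and 958 CPM in KO1 to KO3. Its log2 fold change was 0.02 (SE 0.08, edgeR adjusted p 0.925) and was -0.04 when only library size was used for scaling. The electron donor of the P450 enzymes, Por, had 375 to 386 CPM in WT and 419 to 515 CPM in KO (log2 fold change 0.30, SE 0.10, edgeR adjusted p 0.142). With the 6 libraries kept apart the adjusted p of Por was 0.0389.

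Transcription factors and Notch genes that direct airway secretory fate were estimated as higher for 14 of 17 genes, against 52.2% of all tested genes. Of these 17 genes, 1 was called as higher and 0 as lower (1.38% and 0.906% of all genes), with a median of 0.20. An unadjusted p under 0.05 was reached by 8 (27.3% of all genes), DESeq2 called 8 (21.0%), and 7 had every KO library above every WT library and 2 below (20.0% and 20.7%). The called gene was Hes1, a target of Notch signalling, which favours secretory over ciliated fate. It had 49.3, 48.5 and 49.0 CPM in WT1 to WT3 and 84.2, 119 and 121 CPM in KO1 to KO3, and rose by a log2 fold change of 1.07 (SE 0.15, edgeR adjusted p 0.0474). Its log2 fold change was 0.78 (without KO2 and KO3) to 1.29 (without KO1) when 1 sample was left out. In each of these fits KO is 1 sample. Its call was lost with scaling by library size alone (1.01, adjusted p 0.0519) and with the correction for length and GC content (0.95, adjusted p 0.0958). The receptor Notch2 was below WT in every KO library (log2 fold change -0.33, edgeR adjusted p 0.0799), and was at -0.30 with the 6 libraries kept apart (adjusted p 0.028). The ligand Jag1 was estimated at 0.02. Nkx2-1, the lineage factor of lung epithelium, had 149, 158 and 161 CPM in WT and 198, 237 and 234 CPM in KO, with a log2 fold change of 0.48 (SE 0.09, edgeR adjusted p 0.0586). It was called with the 6 libraries kept apart (0.52, edgeR adjusted p 0.0116) and with DESeq2 (0.48, adjusted p 2.85e-05). With the correction for length and GC content it was not called (0.36, edgeR adjusted p 0.221). Nr3c1, the glucocorticoid receptor, had 195, 212 and 194 CPM in WT1 to WT3 and 168, 172.5 and 169 CPM in KO1 to KO3 (log2 fold change -0.24, SE 0.06, edgeR adjusted p 0.0902). With the 6 libraries kept apart the adjusted p of Nr3c1 was 0.025. With the correction for length and GC content its log2 fold change was -0.08 (adjusted p 0.403), and -0.09 with that and 6 libraries. With the 6 libraries kept apart 6 of the 17 were called as higher and 2 as lower, against 9.81% and 9.07% of all genes.

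**Figure D5:**
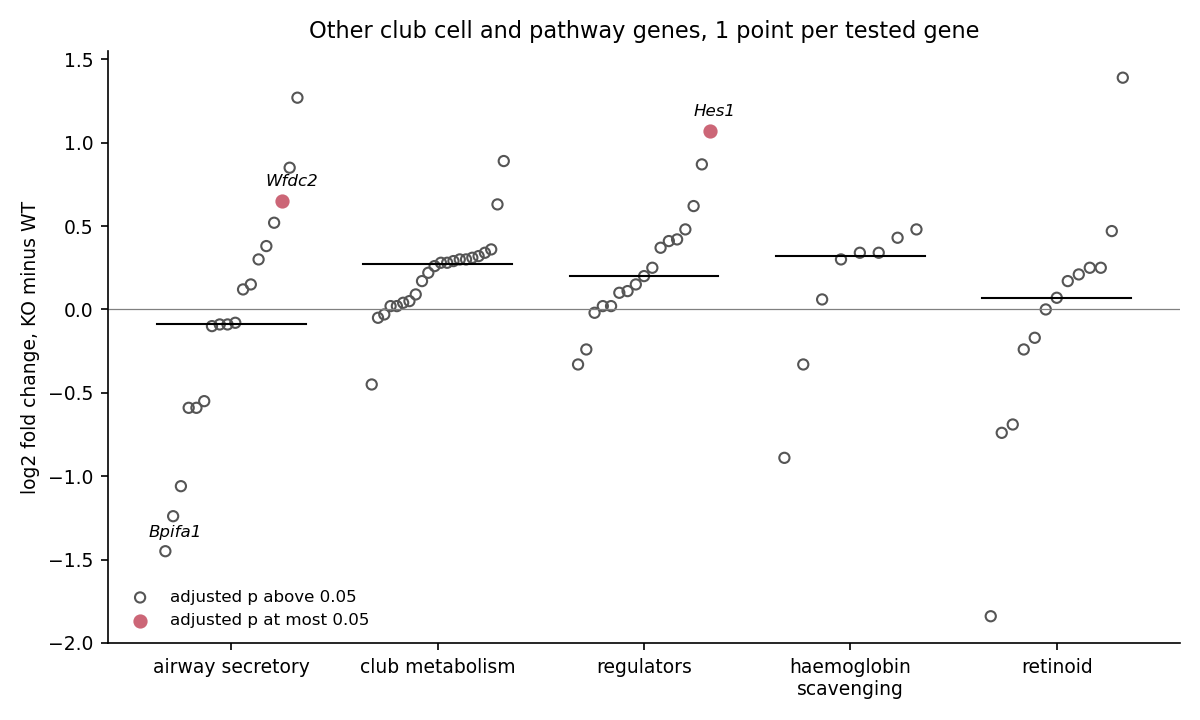
Log2 fold change (vertical axis, KO minus WT) of every tested gene in 5 lists, with black lines for list medians and filled red points for genes at an adjusted p of at most 0.05. Wfdc2 (0.65) and Hes1 (1.07) were the only filled points, and Bpifa1 lay lowest among the airway secretory cell genes at -1.45.

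The pathways around Hp and Aldh1a1 gave 0 called genes in edgeR, against 2.28% of all genes. An unadjusted p under 0.05 was reached by 6 of 8 scavenging and 3 of 13 retinoid genes, DESeq2 called 6 and 1, and limma-voom 1 and 0. Over all tested genes the shares were 27.3% unadjusted, 21.0% with DESeq2 and 2.08% with limma-voom. Among 8 genes of haemoglobin scavenging the median log2 fold change was 0.32. Fth1, the ferritin heavy chain, had 1664 to 1747 CPM in WT and 2038 to 2145 CPM in KO (log2 fold change 0.30, SE 0.06, edgeR adjusted p 0.0577). With the 6 libraries kept apart its adjusted p was 0.0123. Lrp1, an uptake receptor, had 650.3 to 762 CPM in WT and 526 to 604 CPM in KO (log2 fold change -0.33, SE 0.10, edgeR adjusted p 0.119, and -0.14 with the correction for length and GC content). With the 6 libraries kept apart Lrp1 was at -0.37 (adjusted p 0.0309). Of 13 retinoid genes the median was 0.07. The receptor Rarg had a log2 fold change of 0.21 (SE 0.10, edgeR adjusted p 0.253) that was 0.03 without KO1 and 0.04 without WT3 and KO1, and the retinal reductase Dhrs3 one of 0.07 (SE 0.12, edgeR adjusted p 0.77), which was -0.06 without WT3 and KO1. In the 6-library fit 3 scavenging genes and 1 retinoid gene were called as higher, and 2 and 0 as lower (9.81% and 9.07% of all genes).

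Markers of neighbouring cell types were set beside the club cell genes, since several members are shared with them. All 7 members were detected in each library, and their summed level was 32370 to 37640 CPM in WT and 43169 to 57125 CPM in KO. The 11 alveolar type 2 genes, led by Sftpc, summed to 27051 to 28826 CPM in WT and 37599 to 39795 CPM in KO. Of these 11, 4 were called as higher (1.38% of all genes), 10 had every KO library above every WT library (20.0%), and 9 were called as higher with the 6 libraries kept apart (9.81%). Alveolar type 1 genes, led by Ager, summed to 3346 to 3496 CPM and 4409 to 4672 CPM. Of these 5, 3 were called as higher, also with 6 libraries, and 4 had every KO library above every WT library. The 12 ciliated cell genes, led by Sec14l3, summed to 2310 to 2676 CPM in WT, 2202 CPM in KO1 and 3029 to 3090.1 CPM in KO2 and KO3, with 1 called as higher. Sec14l3 gave most of that sum, at 1397.5 to 1676 CPM in WT and 1159.8, 1745 and 1692 CPM in KO1 to KO3. Of the 12 genes, 8 had every KO library above every WT library (20.0% of all tested genes) and 0 the reverse, the median log2 fold change was 0.45, and 7 were called as higher with the 6 libraries kept apart (9.81% of all genes). Goblet cell genes summed to 15.2 to 16.7 CPM in WT and 12.3 to 18.7 CPM in KO, and cartilage genes to 9.35 to 19.3 CPM and 5.86 to 6.46 CPM. Basal cell genes, led by Krt5, summed to 173 CPM in WT3 and 286 CPM in KO1, against 5.31 to 9.26 CPM elsewhere. Erythroid genes summed to 2393 to 5514 CPM in WT, 3962 CPM in KO1 and 18967 to 19709 CPM in KO2 and KO3, and cardiomyocyte genes to 2306 to 6588 CPM in WT and 1191 to 1379.5 CPM in KO. All listed markers had more than 3 counts in at least 1 library. The part of these cell types in the levels of the club cell genes was not tested.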

How the data were processed

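Lung RNA was sequenced in 3 WT and 3 KO libraries. Per the labels and the study's methods, the authors trimmed reads (Trimmomatic 0.36), aligned them to GRCm38 with STAR 2.5.3a and deposited raw counts of reads per gene from HTSeq 0.6.0, with Picard 2.9.0 also named in the submitters' processing notes. The annotation release, read length and use of strand are not given in the sources used here.

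Tests were run on these counts with edgeR 4.0.16 (R 4.3.3), using filterByExpr, TMM scaling, quasi-likelihood test of KO against WT, two-sided, Benjamini-Hochberg adjustment over all 18660 tested genes, called at 0.05. KO2 and KO3 were summed. CPM values use TMM-scaled library sizes. Standard errors and intervals came from the estimate and its F statistic, without adjustment for the number of genes. Alternatives used DESeq2 1.42.0, limma 3.58.1, other scalings and filters, left-out libraries and a smooth on length and GC content (mgcv 1.9.3). The procedure was tested on simulated data. Exon lengths, GC content and positions came from GENCODE M21, which holds 97.5% of the identifiers. The named genes were the members, the 2 most abundant and up to 4 called genes of each list, and the 5 best correlated with Scgb1a1. All other genes named with values, such as Aldh1a7, Notch2, Jag1, Por, Ngp, Camp and Cd163, were added after their values were seen. The members and lists were chosen with earlier results of these data known, and so was the summing of KO2 and KO3.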

Additional observations from a re-analysis of the deposited data

How the results depend on the processing

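Over 19 alternatives, with adjusted p given for those other than the pair without WT3 and KO1, the log2 fold change stayed above 0 for Scgb1a1 (0.33 to 0.74, p 0.0019 to 0.264), Cbr2 (0.42 to 0.86, 7.33e-05 to 0.282), Hp (0.32 to 0.65, 0.00189 to 0.432), Cyp2f2 (0.16 to 0.53, 0.03 to 0.543) and Scgb3a2 (0.01 to 0.26, 0.343 to 0.96). Calls were gained by Scgb1a1, Cyp2f2, Cbr2 and Hp with DESeq2 (0.55, 0.36, 0.66 and 0.52), with 6 separate libraries (0.62, 0.42, 0.73 and 0.56), without WT3 and KO1 (0.68, 0.49, 0.84 and 0.60) and with both of the last choices together (0.68, 0.49, 0.84 and 0.60), 4 genes each. Without WT3 and KO1 the KO arm is KO2 and KO3 alone, as 1 sample or 2, so those calls carry no check of the spread among KO mice. With 6 libraries and library size alone, 3 were called, Scgb1a1 (0.57), Cbr2 (0.69) and Hp (0.52). The alternatives that join 6 libraries with another choice, other than the replicate block, were added after seeing the data. Scgb3a1 changed sign without KO1 (0.18) and without WT3 and KO1 (0.13, and 0.13 with 6 libraries), and Aldh1a1 without KO2 and KO3 (-0.11). Fmo2 was at -0.04 with library size alone, -0.0 with that and 6 libraries, and -0.01, -0.0 and -0.09 without WT1, WT3, and KO2 with KO3 (with 1 sample left out, highest 0.10, without KO1). Dhrs3 was at -0.01 without KO1 (with 1 sample left out, highest 0.19, without WT1), -0.06 without WT3 and KO1 (-0.06 with 6 libraries), -0.02 with the length and GC correction (-0.03 with 6 libraries) and -0.01 with 6 libraries and library size alone. The causes were not tested.

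Leaving out 1 sample at a time gave 0.33 to 0.74 for Scgb1a1, -0.62 to 0.18 for Scgb3a1 (lowest -0.21 when 1 library alone was left out), 0.01 to 0.26 for Scgb3a2, 0.16 to 0.53 for Cyp2f2, -0.11 to 0.21 for Aldh1a1, 0.42 to 0.86 for Cbr2 and 0.36 to 0.65 for Hp, with 0 to 17 of all genes and 0 of the 7 members called, so lost calls there say nothing of single genes. Of all genes, 426 were called, against 3919 with DESeq2, 909 with at least 10 counts in every sample, 3402 with 6 libraries, 2256 without WT3 and KO1, 5985 with both, 3541 with 6 libraries and library size alone, 0 without KO2 and KO3, 0 with the length and GC correction (smallest adjusted p 0.0684) and 2073 with that and 6 libraries. Library size alone called 306 genes and took the share of calls that were higher from 60.3% to 38.2%. Same-numbered WT and KO libraries had correlations of -0.665, 0.691 and -0.777 between their deviations from the group means. Such values cannot decide whether the numbers pair the samples, because WT3 and KO1 stood apart together (0.845) and KO2 and KO3 were near alike. With the replicate block 1157 genes were called, and 2 members, Cbr2 (0.72) and Hp (0.56). Without division by length, WT means put Cyp2f2 in place 2, Cbr2 in 3, Aldh1a1 in 4, Scgb3a2 in 6 and Scgb3a1 in 7. Depth did not limit the members, each with at least 9279 counts in a library, but 40 further secretoglobins were at 3 counts or fewer.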

Other observations

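Some genes of the secretory cell, metabolism and retinoid lists were highest in WT3 and KO1, the libraries in which most listed squamous genes, and Krt5, Krt14 and Trp63 of the basal list, were also highest. The following 4 were chosen as examples after their values were seen. Krt15, a keratin of basal cells, reached 74.3 CPM in WT3 and 135.8 CPM in KO1, while the other 4 libraries had 2.66 to 6.81 CPM. Aldh3a1, an aldehyde dehydrogenase of surface epithelia, had 171 and 264 CPM in these libraries, against 34.4 to 38.2 CPM. Adh7, an alcohol dehydrogenase of stratified epithelium, had 45.2 and 49.8 CPM, against 19.6 to 22.4 CPM. Crabp2, a carrier of retinoic acid, had 11.3 and 20.0 CPM, against 0.150 to 0.226 CPM. None of the 4 was called between the genotypes by edgeR (adjusted p 0.638 to 0.765). None of the 7 club cell genes had its highest levels in WT3 and KO1.

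Cyp26b1, an enzyme that degrades retinoic acid, had 429 CPM in WT1 and 13.5 to 46.5 CPM in the other 5 libraries, also chosen after its values were seen. Cd163, the macrophage receptor for the complex of haptoglobin and haemoglobin, had 12.7, 13.2 and 14.0 CPM in WT1 to WT3 and 8.20, 5.86 and 6.46 CPM in KO1 to KO3. The log2 fold change of Cd163 was -0.89 (edgeR adjusted p 0.0514), and -0.96 with the 6 libraries kept apart (adjusted p 0.0102). Its ligand Hp was higher in every KO library.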
